A study of Drosophila melanogaster with 6 samples.

Results

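The 35 genes described here encode the glutathione transferases of the fruit fly, as far as the array named them. A gene was included when its symbol, brought up to date through its gene identifier, started with Gst and the class letter D, E, O, S, T or Z, for the delta, epsilon, omega, sigma, theta and zeta classes of soluble enzymes. *Mgstl*, the membrane-bound microsomal enzyme, was added. These rules found 38 probe sets of 35 genes, out of 11982 genes with a probe set that names a single gene. Where several probe sets named a gene, the brightest on average over the 6 samples (mean of log2 signals) stood for it. There were 11 delta, 13 epsilon, 3 omega, 1 sigma, 4 theta and 2 zeta genes beside *Mgstl*. *GstE8* met the rule but had no probe set of its own and was not analysed here.

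RNA came from the larval fat body, which serves the fly as adipose tissue and liver, in 3 *delg* mutant and 3 control samples on 1 array each. Mutant larvae were *delg613*/Df(3R)ro80b, with a stop codon allele of *delg* over a deficiency that lacks the gene, a combination that dies in pupal stages. Control larvae were +/Df(3R)ro80b, so that both genotypes carried the same deficiency and the controls had a single copy of *delg*. The chromosome opposite the deficiency differed between genotypes, with *delg613* in mutants and + in controls. Of the genes described here, 13 lie on arm 3R and 3 on arm 3L of this chromosome. Whether differences other than *delg613* between these chromosomes affected the signals of these genes was not tested. Each sample pooled 60 fat bodies, and the labels state an age of 6 days for both genotypes with the same wording. The study calls the array larvae late L3 or wandering, and in other experiments it took mutants at a later age than controls, so that genotype and developmental stage cannot be told apart in these data. Delg is an ETS-domain transcription factor, the counterpart of the alpha subunit of mammalian NRF-2/GABP, and the comparison asks how its loss alters transcript levels in this tissue.

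Glutathione transferases couple the tripeptide glutathione to reactive compounds of foreign or internal origin, which makes these compounds soluble and ready for export. The delta and epsilon classes are expanded in insects, lie in tandem arrays of mostly intronless genes, and are known for breaking down insecticides and plant toxins. The omega, sigma, theta and zeta classes have relatives in mammals. In flies, many of these genes respond to oxidants and toxins through the cap'n'collar factor CncC, the counterpart of mammalian Nrf2. That factor is unrelated to NRF-2/GABP, in spite of the similar name.

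Signals are Affymetrix MAS5 values on a linear scale, with the same trimmed mean on every array, and no detection calls were given. Medians over probe sets were 55.5, 64.0 and 64.8 on the mutant arrays, against 66.1, 62.4 and 75.5 on the control arrays, and signals near or below these medians are called low here. The transcript of *delg*, annotated as *Ets97D*, gave 71.7, 87.1 and 91.9 in mutants, against 135, 122 and 213 in controls, and the probe set does not separate the mutant from the wild-type allele. All 5 measured fat body markers of 9 listed were above the array median on every array, with summed signals of 210783 to 244554 in mutants and 183498 to 282503 in controls. Control replicate 2 stood apart. Its summed signal of 10 salivary gland markers was 24335, against 241476 to 397525 in the other 5 samples. Of these markers, *ng1* (7064) and *ng2* (7884) were at their highest there, and *ng3* (9057) was near the other controls (9440 and 9793). The *Fbp1* signal of control replicate 2 was 1103, against 40320 to 65884. Mutant replicate 1 had 94946 for 9 midgut markers of 12 listed, against 157 to 9662 elsewhere. The largest were *Jon65Aiv* (43059) and *Jon65Aiii* (31459). All of the 9 but *lambdaTry* (5.83) and *LManVI* (112) were at their highest there, *Jon99Ci* at a low 26.5. Summed Malpighian tubule markers (4 of 5 listed) were 1030 to 1177 in mutants and 4569 to 7186 in controls, with *Irk3* and *salt* lower past the test and *Irk2* (0.30 on the log2 scale) and *Nhe3* (0.14) overlapping between genotypes. Summed muscle markers (4 of 7 listed) were 113 to 311 in mutants and 469 to 751 in controls. All 4 were below 0 and none passed the test. *Mlc1* was apart between genotypes (-2.15, limma adjusted p = 0.0527), while *Mlc2*, *up* and *Tm2* overlapped. Hemocyte markers, all 7 measured, summed to 2328 to 4500 in mutants and 1046 to 3655 in controls, with *eater* and *Pxn* higher past the test, *Hml*, *NimC1* and *He* above 0 but not past it, and *PPO1* and *PPO2* at -0.79 and -0.69, overlapping. Without control replicate 2, *PPO1* was -1.49 and lower past the test (limma adjusted p = 0.0324). No marker signal was exactly 0. The part of these tissues in the results below was not tested.

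The glutathione transferase genes changed in both directions in *delg* mutant fat bodies. 4 of 35 genes (11.4%) rose, namely *GstE6*, *GstD3*, *GstO3* and *GstE1*, while 4.45% of all 11982 genes were higher in mutants. 8 of 35 (22.9%) fell, namely *GstD7*, *GstD2*, *GstE10*, *GstD4*, *GstE11*, *Mgstl*, *GstD6* and *GstE13*, while 3.75% of all genes were lower. Calls are those of limma at a Benjamini-Hochberg adjusted p under 0.05 over 18769 probe sets, and as the samples are bulk RNA, fewer cells of a type and less RNA per cell cannot be told apart. The median log2 fold change, mutant over control, was -0.29 over the 35 genes and -0.09 over all genes, and the median size regardless of direction was 0.67 and 0.57. A size of 1 or more on the log2 scale was seen for 13 members (37.1%) and for 27.6% of all genes.

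Groups did not overlap for 18 of the 35 genes. Every mutant sample was above every control sample in 7 genes, while this held for 14.5% of all genes, and every mutant sample was below every control in 11, while this held for 15.6% of all genes. Together this was 51.4% of the members and 30.1% of all genes. An exact permutation test of 3 against 3 samples cannot give a p under 0.1, so calls rest on the limma fit across all probe sets. The count of 8 lower genes was 5 without mutant replicate 2, 4 without mutant replicate 3 and 4 without control replicate 3, and 8 without control replicate 2. Over all genes, 533 were higher and 449 lower, and with each array centred on its median this became 686 and 287, whereas the members then gave 4 and 6.

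**Figure D1:**
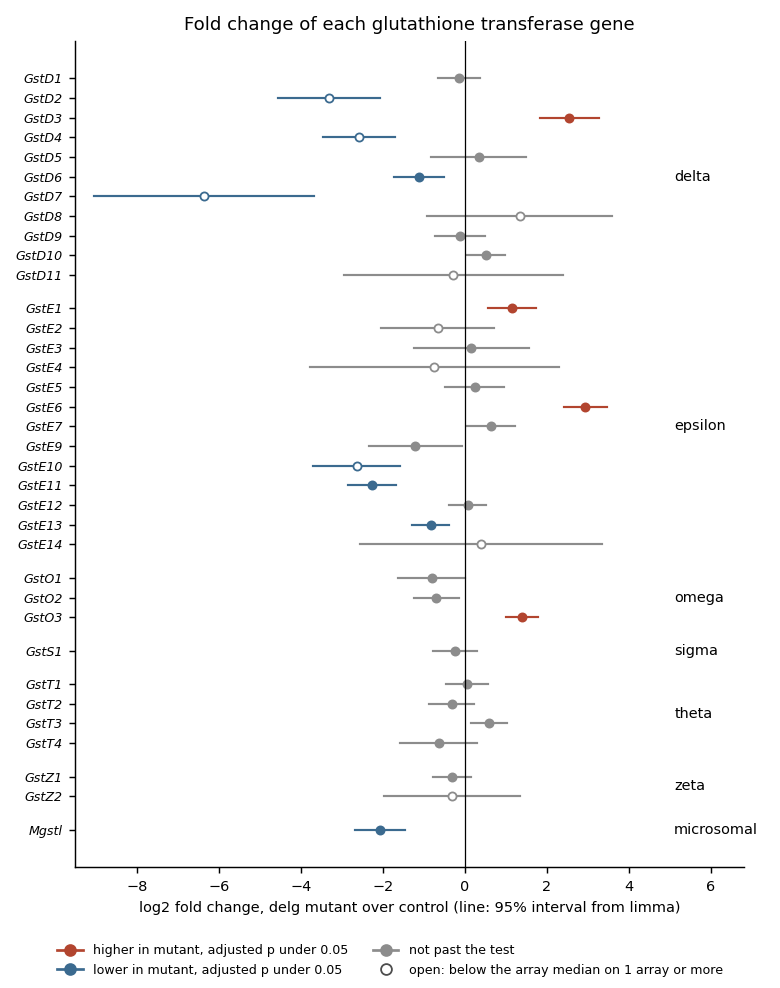
Each point is the log2 fold change (x axis, mutant over control) of 1 of the 35 genes, grouped by class, and each line its 95% interval from limma. Red genes rose (4), blue genes fell (8), grey genes did not pass the test (23), and open points mark genes with a signal below the array median on 1 array or more.

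The delta class held the widest range of differences, -6.36 to 2.55 on the log2 scale, with 1 gene higher and 4 lower of 11. *GstD3* was the delta gene that rose. Its signals were 3203, 2490.3 and 3711 in mutants, against 547, 341 and 797 in controls. The groups were far apart, with a log2 fold change of 2.55 ± 0.32 (SE, limma adjusted p = 0.0032), and the call held without any 1 sample (adjusted p at most 0.032).

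Both genes next to *GstD3* on the chromosome fell. *GstD2*, whose enzyme acts on isothiocyanates of plants, gave 160.3, 103 and 32.9 in mutants, against 646, 874 and 957 in controls. All mutant signals of *GstD2* were below all controls, with a log2 fold change of -3.32 ± 0.54 (SE, limma adjusted p = 0.010), and of the fits without 1 sample, the call was lost in the one without control replicate 3 (0.0555). *GstD4* had low signals of 53.3, 38.7 and 42.4 in mutants, against 206, 332 and 278 in controls. This was a log2 fold change of -2.59 ± 0.38 (SE, limma adjusted p = 0.0066), which held without any 1 sample (at most 0.0436). As all mutant signals of *GstD4* were below the array median, the size depends on the scale, and with 100 added to each signal it was -1.35 (adjusted p = 0.0106).

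*GstD6* and *GstD7* fell as well, and these calls rested on the choice of samples. The signals of *GstD6* were 549, 348 and 417 in mutants, against 713, 1203 and 959 in controls. Groups did not overlap, at a log2 fold change of -1.12 ± 0.27 (SE, limma adjusted p = 0.0466), but of the fits without 1 sample, the call held in the one without control replicate 1 (0.0347) and was lost in the others (0.0602 to 0.175). *GstD7* gave 48.9, 6.83 and 42.8 in mutants, against 477, 12012 and 1387 in controls. All its mutant signals were below the array median, and the controls spread widely, with control replicate 2 far above the other 2. The log2 fold change of *GstD7* was -6.36 ± 1.17 (SE, limma adjusted p = 0.0167), with a 95% interval of -9.04 to -3.68. Without control replicate 2 it was -5.07 (0.0118), and the call was lost without mutant replicate 2 (0.0649), mutant replicate 3 (0.0630) or control replicate 3 (0.0605). With 100 added to each signal before log2 it was -4.05, and the call was lost (0.0513), so its size is not fixed by these low mutant signals.

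The remaining 6 delta genes did not pass the test. *GstD1*, the enzyme best known for DDT breakdown in flies, gave 34645, 34540 and 39670 in mutants, against 42012, 32723 and 46914 in controls. The groups overlapped, and the log2 fold change was -0.15 with a 95% interval of -0.66 to 0.37 (limma adjusted p = 0.801). For *GstD10* every mutant signal (12008 to 13698) was above every control (7160 to 10620), with a log2 fold change of 0.51 and an interval of 0.04 to 0.98 (adjusted p = 0.213). *GstD9* overlapped between genotypes at -0.12 (interval -0.73 to 0.50), and so did *GstD5* at 0.33 (interval -0.82 to 1.48). *GstD8* and *GstD11* were below the median on all 6 arrays, so that their log2 fold changes of 1.33 and -0.29 had intervals of -0.93 to 3.59 and -2.96 to 2.38.

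**Figure D2:**
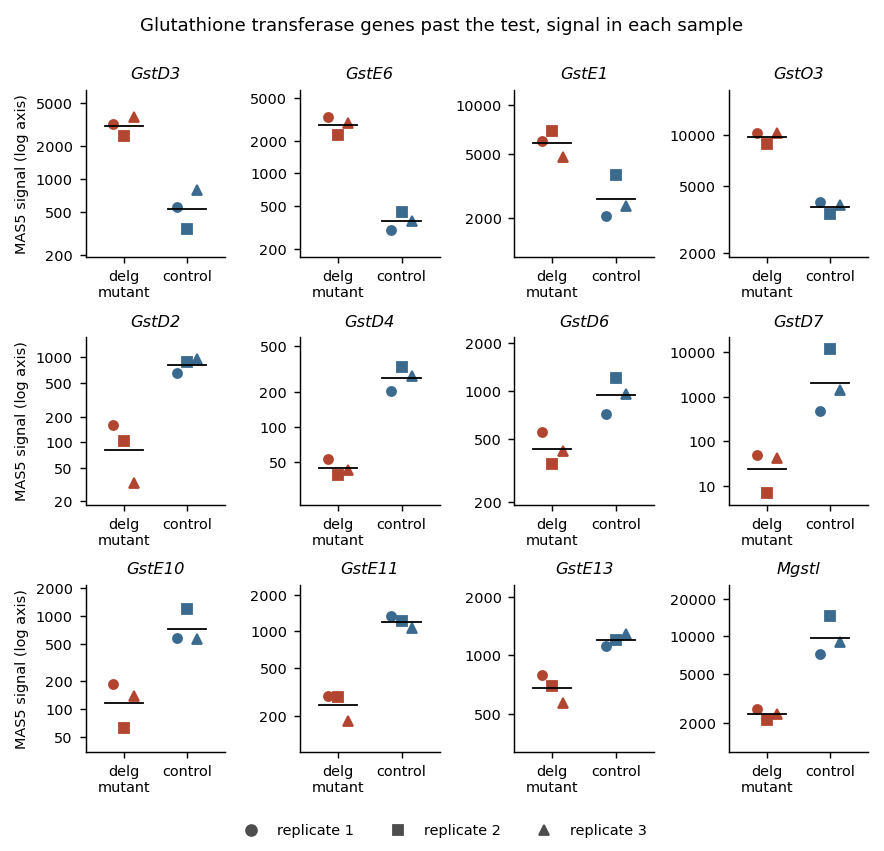
MAS5 signal on a log axis in each of the 3 mutant (red, left) and 3 control (blue, right) samples for the 12 genes past the test, with the replicate number as the symbol and a bar at the geometric mean. The genotypes do not overlap in any panel, and *GstD7* shows the widest control spread, 477 to 12012.

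The epsilon class gave 2 higher and 3 lower genes of 13, with a median log2 fold change of 0.06. *GstE6* had the smallest adjusted p of the family. Its signals were 3277, 2227 and 2918 in mutants, against 301, 441 and 361 in controls, with no overlap. The log2 fold change was 2.93 ± 0.23 (SE, limma adjusted p = 0.00043), or 7.64-fold, and it held without any 1 sample. *GstE1* gave 5937, 6881 and 4760.4 in mutants, against 2064, 3666 and 2375 in controls, again with no overlap. Its log2 fold change of 1.15 ± 0.26 (SE, limma adjusted p = 0.0355) passed only just, since the call was lost without any sample but control replicate 2 (0.0808 to 0.135), and without control replicate 2 it was 1.39 (0.0034).

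*GstE10*, *GstE11* and *GstE13* were the epsilon genes that fell. *GstE10* gave 185, 62.7 and 137.5 in mutants, against 575, 1197 and 566 in controls. The groups were apart, at a log2 fold change of -2.64 ± 0.46 (SE, limma adjusted p = 0.014), and the call was lost without mutant replicate 3 (0.0613). *GstE11* gave 292, 288 and 181 in mutants, against 1342, 1207 and 1066 in controls. Its controls lay close together, with an SD of log2 signals of 0.17, against 0.39 in mutants. The log2 fold change of -2.27 ± 0.25 (SE, limma adjusted p = 0.0020), a 4.84-fold lower level, held without any 1 sample (at most 0.0133). *GstE13* gave 788, 691 and 568 in mutants, against 1124, 1206 and 1293 in controls. This was the smallest of the 12 changes, -0.83 ± 0.20 (SE, limma adjusted p = 0.0450), and of the fits without 1 sample, it held in the one without control replicate 2 (0.0382) and not in the others (0.0700 to 0.192).

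Among the 8 epsilon genes that did not pass, *GstE12* gave 18676, 17448 and 19655 in mutants, against 19733, 15229 and 18703 in controls. These groups overlapped, and the interval of the log2 fold change, -0.38 to 0.51 lay around 0.06. For *GstE9* the mutants had 1818, 1570.15 and 1739, against 1939, 9433 and 3352 in controls. Every mutant signal of *GstE9* was lower, but the controls spread from 1939 to 9433, and the log2 fold change of -1.21 ± 0.49 had an adjusted p of 0.222 in limma. Its second, dimmer probe set gave -2.31 (adjusted p = 0.0546). Neither probe set passed alone, while the mean of both did, at -1.76 (0.0112). *GstE7* lay higher in every mutant (5248 to 6448) than in every control (2542 to 4628), with a log2 fold change of 0.63 and an interval of 0.04 to 1.21 (adjusted p = 0.223). *GstE5* overlapped at 0.23 (interval -0.48 to 0.94). *GstE2*, *GstE4* and *GstE14* were below the array median on all 6 arrays. *GstE14*, known as noppera-bo, serves steroid hormone synthesis in the prothoracic gland, a tissue that was not sampled, and its signals were 2.26 to 48.8.

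The 3 omega genes, whose enzymes act as thiol transferases and dehydroascorbate reductases rather than as classical conjugating enzymes, lie in 1 stretch of arm 3L with the gene *se* among them, and 1 of the 3 passed the test. *GstO3* gave 10344, 8864 and 10357 in mutants, against 4016, 3405 and 3870.1 in controls. The replicates were tight in both genotypes, and the log2 fold change of 1.39 ± 0.17 (SE, limma adjusted p = 0.0032), or 2.62-fold, held without any 1 sample (at most 0.033). *GstO2* gave 1781, 1555 and 1529 in mutants, against 2080.4, 3679 and 2370.0 in controls. Every mutant signal of *GstO2* was lower, but the log2 fold change of -0.70 ± 0.24 missed the threshold (limma adjusted p = 0.140), and so did its second probe set (-0.80, 0.115). *GstO1* overlapped between genotypes at -0.81 (interval -1.63 to 0.0046, adjusted p = 0.263). The neighbouring gene *se*, an omega-type enzyme needed for the red eye pigments, which the symbol rule does not include, was near or below the array medians, with signals of 52.3, 2.34 and 61.8 in mutants, against 16.3, 8.58 and 6.69 in controls.

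*Mgstl* belongs to a separate protein family that sits in membranes, and its transcript fell. Signals were 2618, 2098 and 2351 in mutants, against 7177, 14519 and 9032 in controls. The groups were apart, at a log2 fold change of -2.06 ± 0.27 (SE, limma adjusted p = 0.0039), or 4.18-fold lower, and the call held without any 1 sample (at most 0.0328). A second probe set of *Mgstl* with low signals (52.6 to 80.7 in mutants and 5.13 to 40.0 in controls) gave 1.68 ± 0.89 (adjusted p = 0.366), so that the mean of both probe sets, -0.19, no longer passed (0.879).

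The sigma, theta and zeta genes had no call among 7. *GstS1*, which removes products of lipid peroxidation, gave 9945, 11451 and 12528 in mutants, against 15149, 9773 and 15832 in controls. These signals overlapped, and the log2 fold change of -0.24 had an interval of -0.78 to 0.30. *GstT1* likewise overlapped, with 4798, 4539 and 4761 in mutants, against 3696, 6302 and 4066 in controls, and a log2 fold change of 0.04 (interval -0.48 to 0.56). *GstT3* was higher in every mutant (2515 to 3028) than in every control (1679 to 2240.4), with 0.59 ± 0.19 and an adjusted p of 0.118. *GstT2* overlapped at -0.33 (interval -0.87 to 0.22), and *GstT4* at -0.64 (interval -1.59 to 0.30). *GstZ1*, an isomerase of tyrosine breakdown, gave 719.6, 615 and 603 in mutants, against 739.7, 947 and 746 in controls. Its mutant signals were all lower, by little, at -0.32 with an interval of -0.79 to 0.14. *GstZ2* was low, with signals of 21.7 to 45.5 in mutants and 20.3 to 78.3 in controls.

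Calls were found at bright and at dim signals. 25 of the 35 genes were above the array median on all 6 arrays, and of these 4 rose (16%), 4 fell (16%) and 17 did not pass. Of the 6397 genes above the median on all arrays, 6.94% were higher and 6.07% lower. In *GstD2*, *GstD4*, *GstD7* and *GstE10*, the other 4 genes that fell, at least 1 mutant signal was below the array median. With 100 added, *GstD2* was -2.26 (limma adjusted p = 0.0052) and *GstE10* was -1.91 (0.0170), against -3.32 and -2.64 without it. 32 of the 35 probe sets carry the plain suffix of sets designed for 1 transcript, and *GstS1*, *Mgstl* and *GstZ2* have a suffix for shared transcripts. Related delta and epsilon genes are alike in sequence, and how far their probes cross-hybridise was not tested.

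Called genes lay next to each other in both directions in the delta and epsilon arrays. On chromosome arm 3R, in the order of the RefSeq annotation, *GstD2*, *GstD3*, *GstD4*, *GstD5*, *GstD6*, *GstD7* and *GstD8* follow each other. Of these 7, 6 had a log2 fold change of 1 or more in size, against 27.6% of all genes. Among those past the test 1 was up and 4 were down, while 4.45% of all genes were higher and 3.75% lower. The 6 include *GstD8* (1.33), which was below the array median on all 6 arrays and did not pass. *GstD10*, *GstD9* and *GstD1*, on the other side of 1 gene that the symbol rule does not include, gave no call. On arm 2R, *GstE10* and *GstE1* overlap in their annotated spans, and *GstE10* fell while *GstE1* rose. *GstE6* had *GstE5* and *GstE7* at its sides, neither of which passed. Among 17 pairs of adjacent measured family members, 11 had fold changes of opposite sign and 6 of the same sign, but most of these pairs hold a gene that did not pass the test, and over the whole family 14 genes were above 0 and 21 below. In 4 pairs both genes were called, with opposite directions for *GstE10* and *GstE1*, *GstD2* and *GstD3*, and *GstD3* and *GstD4*, and the same direction for *GstD6* and *GstD7*. All pairs share the same 6 samples, and these counts are given as a description.

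**Figure D3:**
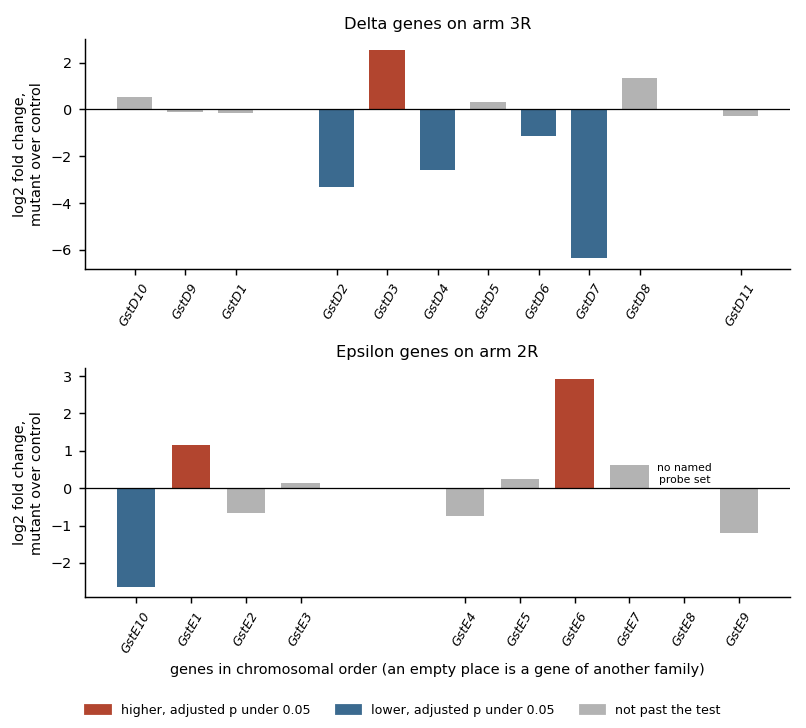
Bars give the log2 fold change (mutant over control) of the delta genes on arm 3R and the epsilon genes of the main array on arm 2R. Genes are in chromosomal order, with an empty place for a gene that the symbol rule does not include. Red bars rose, blue bars fell and grey bars did not pass the test, and higher and lower genes alternate from *GstD2* (-3.32) through *GstD3* (2.55) to *GstD4* (-2.59).

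Control replicate 2 moved many of these genes. Relative to the mean of the other 2 controls on the log2 scale, it was higher by 3.88 for *GstD7*, 1.89 for *GstE9*, 1.46 for *GstD5* and 1.07 for *GstE10*. For *GstE3* it was lower, at -2.52, and for *GstT4* at -1.22. Among genes with low signals, it differed by -2.85 for *GstE14*, 2.61 for *GstD11*, 2.60 for *GstE4* and 1.46 for *GstZ2*. It was the highest of the 3 controls for 17 genes, the lowest for 14 and between them for 4, and over all 11982 genes it was the highest for 4155 and the lowest for 5218. The median SD of log2 signals was 0.27 in mutants and 0.43 in controls, against 0.39 and 0.55 over all genes, and the control SD was the larger in 26 of 35 genes (74.3%, against 60.6% of all genes).

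Leaving out control replicate 2 kept 11 of the 12 calls. *GstD6* was lost (adjusted p = 0.0602) and *GstE3* was gained. *GstE3*, chosen for mention after its values were seen, gave 13540.4, 11373 and 10412 in mutants, against 20618, 3302 and 17341 in controls. With all samples the groups overlapped and the log2 fold change was 0.15, with an interval of -1.26 to 1.55 (limma adjusted p = 0.938). Without control replicate 2, every mutant signal of *GstE3* was below both controls, and it was -0.69 (adjusted p = 0.048).

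**Figure D4:**
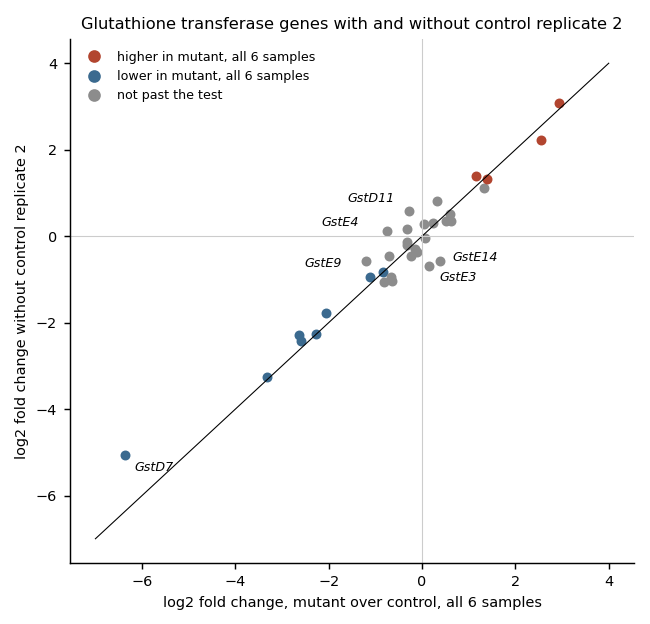
Log2 fold change (mutant over control) of each of the 35 genes with all 6 samples (x axis) and without control replicate 2 (y axis), with the line of equal values and names for genes that moved by over 0.6. *GstD7* moves to -5.07 and *GstE3* to -0.69, while the 4 genes that rose (red) stay above 0 and the 8 that fell (blue) below it.

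Enzymes that make, recycle and use glutathione were looked at beside the transferases, 25 of 27 listed genes being measured. 3 rose (12%, against 4.45% of all genes), 1 fell (4%, against 3.75%) and 21 did not pass, and the median log2 fold change was 0.10. Synthesis starts with glutamate-cysteine ligase, whose catalytic subunit *Gclc* gave 1219, 852 and 1036 in mutants, against 343, 319.98 and 409 in controls. All mutants were well above all controls, with a log2 fold change of 1.53 ± 0.22 (SE, limma adjusted p = 0.0065), or 2.88-fold, and of the fits without 1 sample, the call was lost in the one without mutant replicate 3 (0.052). Its modifier subunit *Gclm* gave 104, 208 and 105 in mutants, against 81.7, 144 and 244 in controls, which overlapped (-0.11, interval -1.25 to 1.02).

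Regulators of these genes were measured too. The *cnc* transcript, whose long isoform encodes CncC, gave 5456, 4312 and 4650.1 in mutants, against 2809.97, 3077 and 2790.2 in controls. All mutant signals were higher, by 0.73 ± 0.17 (SE, limma adjusted p = 0.0438), and the probe set does not separate the isoforms. Its DNA-binding partner *maf-S* gave 970.03, 687 and 859 in mutants, against 398, 415 and 488 in controls, again apart, with 0.94 ± 0.22 (SE, limma adjusted p = 0.0405). Both calls are borderline, since of the 6 fits that left out 1 sample they held only in the one without control replicate 2 (0.019 for *cnc* and 0.0378 for *maf-S*), and the others reached 0.181 for *cnc* and 0.174 for *maf-S*. *Keap1*, which holds CncC back in the cytoplasm, gave 389, 300.3 and 388 in mutants, against 204, 241 and 267 in controls. The mutants were again above the controls, but 0.60 ± 0.25 did not pass (adjusted p = 0.242).

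On the side of glutathione use, 1 of 9 genes was called. *Fdh*, the glutathione-dependent formaldehyde dehydrogenase, gave 4649.6, 5388 and 4715 in mutants, against 9348, 11007 and 8673 in controls. It fell by 0.97 on the log2 scale (SE 0.18, limma adjusted p = 0.0168), and the call held without control replicate 1 or 2 but not without any other sample (at most 0.0993). Breakdown (5 genes), disulfide reduction (3 genes), cysteine supply (2 genes) and export (1 gene) had no call, with log2 fold changes between -0.95 and 0.98. *Cth*, which releases cysteine from cystathionine, gave 6145, 7966 and 7364 in mutants, against 13209, 12269 and 10296 in controls. Its groups were apart, and -0.74 ± 0.19 missed the threshold (limma adjusted p = 0.0631). *Ggt-1*, a breakdown gene, gave 176, 243 and 225 in mutants, against 456, 376 and 405 in controls. The groups of *Ggt-1* were also apart, and -0.95 ± 0.25 missed the threshold as narrowly (limma adjusted p = 0.0631).

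**Figure D5:**
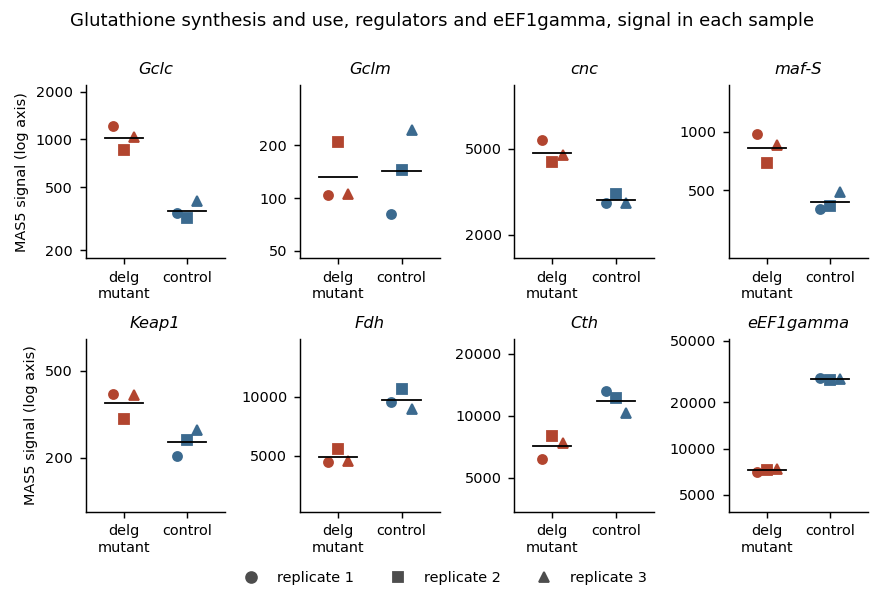
MAS5 signal on a log axis in each mutant (red, left) and control (blue, right) sample for genes of glutathione synthesis, its regulators, *Fdh*, *Cth* and *eEF1gamma*, with a bar at the geometric mean. *Gclc*, *cnc*, *maf-S* and *Keap1* lie higher in all 3 mutants, *Fdh*, *Cth* and *eEF1gamma* lower, and *Gclm* overlaps.

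Other proteins with a glutathione transferase fold but another function were listed as a comparison, 6 of 8 being measured. All 6 log2 fold changes were below 0, with a median of -0.66, and 1 passed the test. This was *eEF1gamma*, a subunit of a translation elongation factor complex, with 7002, 7262 and 7371 in mutants, against 28661, 27849 and 28403 in controls. Replicates were almost equal within each genotype, and the log2 fold change of -1.97 ± 0.17 (SE, limma adjusted p = 0.00070), or 3.93-fold lower, held without any 1 sample (at most 0.0112).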

How the data were processed

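The authors hybridised biotin-labelled RNA (30 ng of total RNA, amplified in 2 cycles) to Affymetrix Drosophila Genome 2.0 arrays. The deposited intensity values are linear MAS5 signals made with GCOS 1.4 per the submitters' processing notes, and the mean of each array, with 2% trimmed at each end, was checked to be 500. The files used give no genome build and no detection calls, and precision is limited by the 3 arrays per genotype. The limma p-values set each difference against a variance that draws on these samples and on a trend over all probe sets.

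Of 18952 probe sets, 183 Affymetrix controls were left out, and log2 of the signals was tested with no added constant in R 4.3.3 with limma 3.58.1 (lmFit and eBayes with a trend), with Benjamini-Hochberg adjustment over 18769 probe sets. The annotation gave 1 symbol to 13647 probe sets (13544 updated by gene identifier, 103 kept), several to 402 and none to 4720, and only the first kind was named. RefSeq (Release 6 plus ISO1 MT) gave gene order. The script was tested on simulated data. Sample values are given for genes past the threshold, for genes with groups apart and a log2 fold change of 1 or more in size, and for the gene with the highest mean signal of each class. Other names were chosen after their values were seen, as *GstE3* was. Members and lists were chosen with earlier results of these data known. Same-numbered samples had residual correlations of -0.04, -0.07 and -0.01, so replicate numbers were not used as pairs. Alternatives were array centring, quantile normalization, 100 added before log2, the brighter probe sets, the mean of probe sets, a replicate block, no trend, array weights, the methods' t-test and leaving out each sample.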

Additional observations from a re-analysis of the deposited data

How the results depend on the processing

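Against 4 higher and 8 lower glutathione transferase genes, quantile normalization, array weights and the brighter probe sets (29 genes tested) gave 4 and 8. The mean of probe sets also gave 4 and 8, and centred arrays or 100 added gave 4 and 6. Centring lost *GstD6* (limma adjusted p = 0.108) and *GstE13* (0.132), and 100 added lost *GstD6* (0.0552) and *GstD7* (0.0513). The replicate block gave 4 and 4 (*GstD6*, *GstD7*, *GstE10* and *GstE13* lost). Limma without a trend gave 1 and 2, keeping *GstE6*, *GstD4* and *GstE11*, while *GstD3* (adjusted p = 0.0567) and *GstO3* (0.0750) were lost. The methods' t-test gave 2 and 2 after adjustment and 6 and 8 before it. After adjustment it kept *GstE6*, *GstO3*, *GstD4* and *GstE11*, and *GstD3* was lost (0.0771). Leaving out 1 sample gave 3 to 4 higher and 4 to 8 lower. For the glutathione list, with 3 higher and 1 lower, the block gave 1 higher. No trend and the adjusted t-test gave 0 higher and 0 lower. Centring gave 2 higher and 0 lower, and the mean of probe sets gave 2 higher and 1 lower. The brighter probe sets gave 3 lower, array weights 4 lower, and the unadjusted t-test 4 higher and 5 lower. Leaving out 1 sample gave 0 to 3 higher and 0 to 3 lower. Over all genes, 533 higher and 449 lower became 338 and 215 with the block, 106 and 57 without a trend, 137 and 107 with the adjusted t-test, 852 and 857 with array weights, and 178 to 714 higher and 122 to 633 lower without 1 sample. The median of -0.29 was -0.15 when centred, -0.12 with 100 added and -0.38 to -0.11 without 1 sample; centring moves the median of all genes to 0.06. Only genes not past the test changed sign: *GstD1* was 0.092 after quantile normalization, *GstD9* 0.027 when centred, *GstE14* -0.043 with 100 added, and with array weights *GstD11* was 0.98, *GstE3* -0.38 and *GstZ2* 0.28. Without 1 sample, sign changed within -1.28 to 0.58 for *GstD11*, -0.14 to 0.82 for *GstD5*, -0.36 to 0.12 for *GstD9*, -0.049 to 0.14 for *GstE12*, -0.57 to 1.65 for *GstE14*, -0.69 to 0.63 for *GstE3*, -1.91 to 0.11 for *GstE4*, -0.11 to 0.28 for *GstT1* and -0.81 to 0.16 for *GstZ2*. The cause of these shifts was not tested.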
